A study of Mus musculus with 15 samples.

Results

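The CDC-like kinases (CLKs) are encoded in the mouse by Clk1, Clk2, Clk3 and Clk4, and 3 of these 4 genes are described here, out of 19938 genes measured. A gene was taken where the platform annotation pairs a probe set with its symbol alone, and the brightest such probe set would be kept if there were several. Clk1, Clk3 and Clk4 each had 1 such probe set. The Clk2 probe set carries a further symbol, Gm45927, so Clk2 is not analysed here. The family was proposed with its severe-against-mild values known, so each such value of these genes is given as a description with no test.

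The right hippocampus of 15 male C57BL/6 pups was profiled on postnatal day 9 on single-colour Affymetrix arrays whose probes are spread over a gene's exons, with 3 pups in each of 5 groups. The groups were severe stress with morphine (SSM), severe stress with saline vehicle (SSS), mild stress with morphine (MSM), mild stress with saline vehicle (MSS) and untreated controls (CC), and the treatments ran from postnatal day 5 to day 9. The sources used here do not say what each stress consisted of, how much morphine was given or which pups were littermates. The p-values therefore cover only the variation among these arrays, part of which may be technical. Each sample title has an SS number, whose meaning is not stated and which was 8, 9 or 10 in the severe-stress pups, 11 in all 6 mild-stress pups and 12 in the controls, so that the stress level and the SS number cannot be told apart. All values are log2 intensities made with RMA (background correction, quantile normalization and a summary per probe set), and a difference of 1 on this scale is a doubling.

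CLKs are nuclear kinases that phosphorylate serine and arginine rich splicing factors (SR proteins) in their RS domains. Phosphorylation by CLKs releases SR proteins from nuclear speckles, where they are stored, to sites of splicing, while the related SRPK kinases drive their import from the cytoplasm. In mouse and human cells a share of Clk1 and Clk4 transcripts is kept in the nucleus with introns not yet removed, and is spliced to completion after heat shock or other stress. Clk1 also makes a transcript that skips an exon and codes for a protein without the kinase domain. The Clk1 probe set could not separate these forms, since its value is a summary over probes along the gene. RefSeq lists 1 coding and 2 noncoding transcripts for Clk1, against 16 coding transcripts for Clk4 and 6 for Clk3.

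The promoters of Clk4 and Clk3 are shown because these genes differ in how they varied over the arrays. Each stretch is the 250 bases before the transcription start in RefSeq's GRCm38.p6, 5′ to 3′ on the gene's strand, with capitals for a cyclic AMP response element (TGACGTCA) or a GC box (GGGCGG), searched on both strands.
Clk4, chr11:51262864-51263113, plus strand: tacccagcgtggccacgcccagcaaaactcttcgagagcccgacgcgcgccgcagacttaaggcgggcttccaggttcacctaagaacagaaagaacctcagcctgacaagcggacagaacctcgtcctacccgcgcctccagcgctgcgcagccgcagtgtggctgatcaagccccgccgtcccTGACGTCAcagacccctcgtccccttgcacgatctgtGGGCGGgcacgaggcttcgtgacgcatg
Clk3, chr9:57765115-57765364, minus strand: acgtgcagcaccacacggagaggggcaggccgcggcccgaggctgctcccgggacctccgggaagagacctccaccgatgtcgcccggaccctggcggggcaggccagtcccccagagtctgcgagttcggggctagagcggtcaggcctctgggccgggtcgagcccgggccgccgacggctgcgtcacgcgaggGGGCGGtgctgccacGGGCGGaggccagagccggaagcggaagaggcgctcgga

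The Clk4 promoter held 1 cyclic AMP response element, the palindrome bound by CREB-family factors, at bases -65 to -58. The same letters were found in 508 of 32851 promoter windows of this length (1.55%), and not in the windows of Clk3 or Clk2. A GC box, the motif of Sp-family factors, occurred once in the Clk4 window and at 2 positions in the Clk3 window, and in 32.7% of all windows. Neither window held a TATA box (TATAAA, in 12.4% of windows) or a CCAAT box (CCAAT, in 33.9%). The guanine and cytosine content was 64.4% for Clk4 and 75.2% for Clk3, against a median of 52.4% over all windows. A match describes the letters only. The promoter of Clk1 is not used here.

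Clk1 and Clk4 had lower values under severe than under mild stress, with or without morphine, while the groups of Clk3 overlapped. Averaged over both drugs, Clk1 was 0.59 lower under severe than under mild stress on the log2 scale (SE 0.10), which is 66.3% of the mild-stress level. Clk4 was 0.45 lower (SE 0.082), or 73.2% of the mild-stress level, and Clk3 was 0.039 lower (SE 0.054), or 97.3%. In Clk1 and in Clk4 all 6 severe-stress arrays lay below all 6 mild-stress arrays, which was the case for 0.411% of all 19938 genes. Since the family was picked from this contrast, nothing is read from that share.

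Clk1 codes for the best studied kinase of the family, first found as STY. On the SSM arrays it was 9.08, 8.94 and 9.18, and on the SSS arrays 8.68, 9.00 and 9.38. On the MSM arrays it was 9.58, 9.53 and 9.84, and on the MSS arrays 9.67, 9.64 and 9.56. The CC arrays had 9.66, 9.33 and 9.33, so that CC replicate 1 was inside the mild range and the other 2 controls lay below SSS replicate 3 (9.38). By group, Clk1 averaged 9.07 ± 0.12 in SSM, 9.02 ± 0.35 in SSS, 9.65 ± 0.17 in MSM, 9.63 ± 0.055 in MSS and 9.44 ± 0.19 in CC (SD, n = 3 each). From low to high the order was SSS, SSM, CC, MSS and MSM. SSS and SSM differed by less than their SDs, as did MSS and MSM, and CC overlapped with SSS and with both mild-stress groups but not with SSM. In Clk1 and Clk4 all SSM arrays lay below all CC arrays (1.48% of all genes), while in 0 of the 3 genes did all SSS arrays (4.07% of all genes). The SSM and SSS arrays are part of the contrast from which the family was picked, so nothing is read from these shares.

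Clk4 codes for the kinase closest to Clk1 in the family. Its values were 7.88, 7.73 and 7.91 in SSM and 7.51, 7.77 and 8.03 in SSS. They were 8.20, 8.24 and 8.36 in MSM, 8.40, 8.12 and 8.22 in MSS, and 8.23, 7.94 and 8.05 in CC. As in Clk1, SSS replicate 1 was the lowest of the 15 arrays, SSS replicate 3 the highest under severe stress and CC replicate 1 the highest control. Group means were 7.84 ± 0.096 in SSM, 7.77 ± 0.26 in SSS, 8.27 ± 0.083 in MSM, 8.24 ± 0.14 in MSS and 8.07 ± 0.15 in CC (SD, n = 3 each), in the same order from low to high as for Clk1. The highest SSM array (7.91) and the lowest CC array (7.94) were nearly level, while SSS and CC overlapped.

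Clk3, whose kinase is abundant in mature sperm as well as present in brain, was nearly flat. It was 8.74, 8.50 and 8.46 in SSM, 8.43, 8.44 and 8.54 in SSS, 8.50, 8.47 and 8.65 in MSM, 8.63, 8.53 and 8.55 in MSS, and 8.59, 8.47 and 8.55 in CC. All 5 groups overlapped, and the group means ran from 8.47 ± 0.059 in SSS to 8.57 ± 0.052 in MSS (SD, n = 3 each), and the widest step between neighbours in that order was 0.066, between SSS and CC. The highest array was SSM replicate 1, which also had the highest mean of the striatum markers, as given below. Whether these are linked was not tested.

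**Figure D1:**
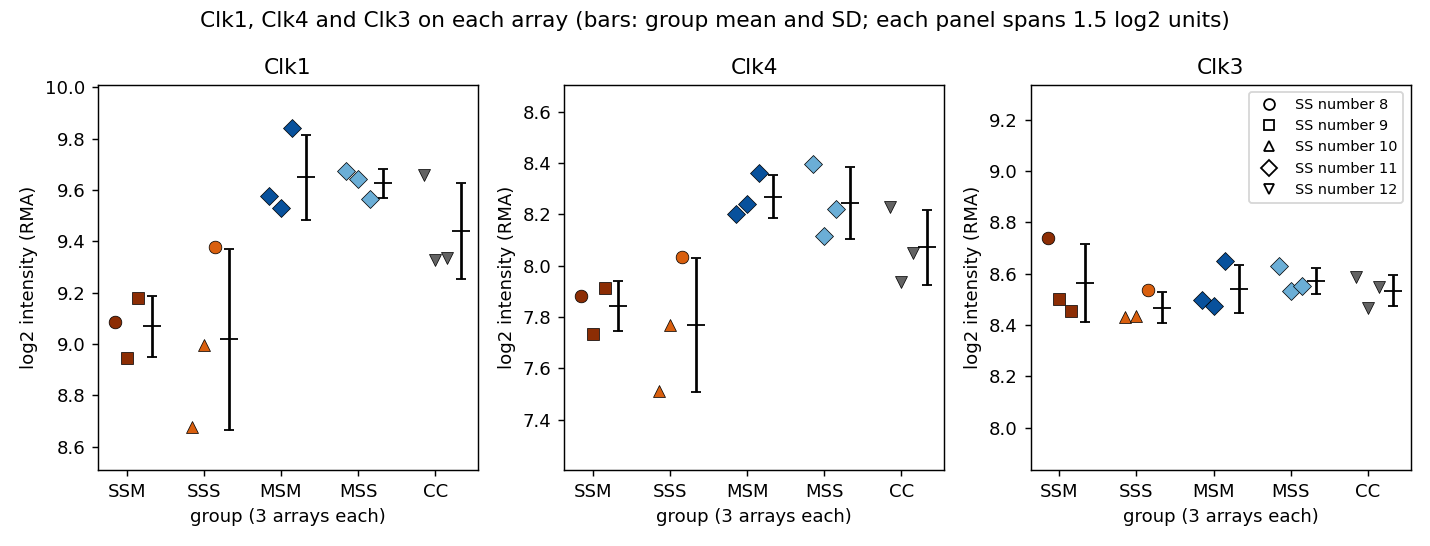
Each point is an array, with the log2 intensity on the vertical axis and the group on the horizontal axis; the marker shape gives the SS number, and the bars are the group mean and SD (n = 3). All 6 severe-stress arrays lie below all 6 mild-stress arrays for Clk1 and Clk4, with the control means between, while the groups overlap for Clk3.

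The same difference was seen within each drug. With morphine, Clk1 was 0.58 lower in SSM than in MSM (SE 0.14) and Clk4 0.43 lower (SE 0.12). With saline, Clk1 was 0.61 lower in SSS than in MSS (SE 0.14) and Clk4 0.47 lower (SE 0.12). In both genes the SSM arrays did not overlap with the MSM arrays, nor the SSS arrays with the MSS arrays (true of 2.54% and 4.43% of all genes). This follows from the separation of all severe-stress from all mild-stress arrays, so nothing is read from these shares either. For Clk3 the difference was 0.025 (SE 0.076) between SSM and MSM and -0.10 (SE 0.076) between SSS and MSS.

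In Clk1 and Clk4 each SS number of the severe-stress pups had a mean below that of the mild-stress pups. This had to be so, since every severe-stress array lay below every mild-stress array in these genes. The Clk1 mean over the 2 arrays of SS number 8 was 0.41 below the mean of SS number 11, that of SS number 9 was below by 0.58 and that of SS number 10 by 0.80. For Clk4 these gaps were 0.30, 0.43 and 0.62. Single arrays of different SS numbers overlapped: SSM replicate 3 (SS number 9) lay above SSM replicate 1 (SS number 8) in both genes, and SSM replicate 2 (SS number 9) below SSS replicate 2 (SS number 10).

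Against the untreated controls, the group means of Clk1 and Clk4 lay on opposite sides under severe and under mild stress. In both genes the single arrays of MSM, MSS and SSS overlapped with those of CC. Clk1 minus CC was -0.37 in SSM and -0.42 in SSS, against 0.21 in MSM and 0.19 in MSS (SE 0.14 each). Clk4 minus CC was -0.23 in SSM and -0.30 in SSS, against 0.20 in MSM and 0.17 in MSS (SE 0.12 each). Clk3 minus CC stayed between -0.066 and 0.038 (SE 0.076). These 4 comparisons share the CC arrays, and they overlap with the contrast from which the family was picked, so they are given without a test. All CC pups share SS number 12.

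Differences that do not rest on the severe-against-mild contrast could be tested, and none passed. The mean of the 4 treated groups minus CC was -0.10 for Clk1 (95% interval -0.34 to 0.14, adjusted p = 1.0 in limma with Benjamini-Hochberg adjustment over all genes). For Clk4 it was -0.040 (95% interval -0.24 to 0.16) and for Clk3 0.0023 (95% interval -0.13 to 0.13). In Clk1 and Clk4 the means of the severe-stress and mild-stress groups lay on opposite sides of CC and partly cancel here. A value near 0 therefore does not show that each treated group was level with CC. In limma 0 of 19938 genes (0%) passed in this comparison, while the unadjusted p was under 0.05 for 370 (1.86%). For Clk1 and Clk4 the sign of this mean turned without CC replicate 1, to 0.0087 and 0.038.

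Morphine, an agonist of opioid receptors, made no detectable difference in any of the 3 genes. Averaged over both stress levels, morphine minus saline was 0.037 for Clk1 (SE 0.10, adjusted p = 0.949), from 9.36 ± 0.34 with morphine and 9.32 ± 0.40 with saline (SD, n = 6 each). It was 0.048 for Clk4 (SE 0.082, adjusted p = 0.901) and 0.032 for Clk3 (SE 0.054, adjusted p = 0.897), all in limma with Benjamini-Hochberg adjustment. The 95% intervals ran from -0.18 to 0.25 for Clk1, from -0.13 to 0.22 for Clk4 and from -0.082 to 0.15 for Clk3. Changes within these intervals are not excluded. A larger change could also have failed to pass, since the threshold is adjusted over all genes and the intervals are not. Across all genes 0 of 19938 (0%) passed in limma, while the unadjusted p was under 0.05 for 7.64%. Marker levels differed between the morphine and saline arrays, with 0 passing in limma. In this comparison 32.7% of all genes were lower with morphine. Higher with morphine were 10 of 10 choroid plexus markers (median 0.71), 8 of 8 striatum markers (median 0.67) and 8 of 8 myelin markers (median 0.60). Of the hippocampal neuron markers 7 of 9 were lower (median -0.23). Single arrays weighed heavily: striatum markers averaged 9.78 in SSM replicate 1, against 7.13 and 7.29 in the other SSM arrays. Choroid plexus markers averaged 5.58 and 5.55 in MSS replicates 1 and 2, against 7.11 in replicate 3. The part of these markers in the morphine values was not tested.

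Within mild stress, where all 6 pups share SS number 11, MSM minus MSS was 0.023 for Clk1 (SE 0.14), 0.024 for Clk4 (SE 0.12) and -0.032 for Clk3 (SE 0.076), with an adjusted p of 1.00 each in limma. Within severe stress SSM minus SSS was 0.051 for Clk1 (adjusted p = 0.920), 0.072 for Clk4 (adjusted p = 0.848) and 0.096 for Clk3 (adjusted p = 0.682). The only SS number under severe stress that holds both drugs is 8, with 1 pup each. There Clk1 was 9.08 in the SSM pup and 9.38 in the SSS pup, a difference of -0.30 that is opposite in sign to the group difference. The interaction, which asks whether the morphine difference itself differed between severe and mild stress, was 0.028 for Clk1 (SE 0.20, adjusted p = 0.993), 0.048 for Clk4 (SE 0.16, adjusted p = 0.984) and 0.13 for Clk3 (SE 0.11, adjusted p = 0.959). In these 3 comparisons 0 of 19938 genes (0%) passed in limma, and an unadjusted p under 0.05 was found for 2.57% of genes in MSM minus MSS, 9.37% in SSM minus SSS and 3.65% in the interaction.

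**Figure D2:**
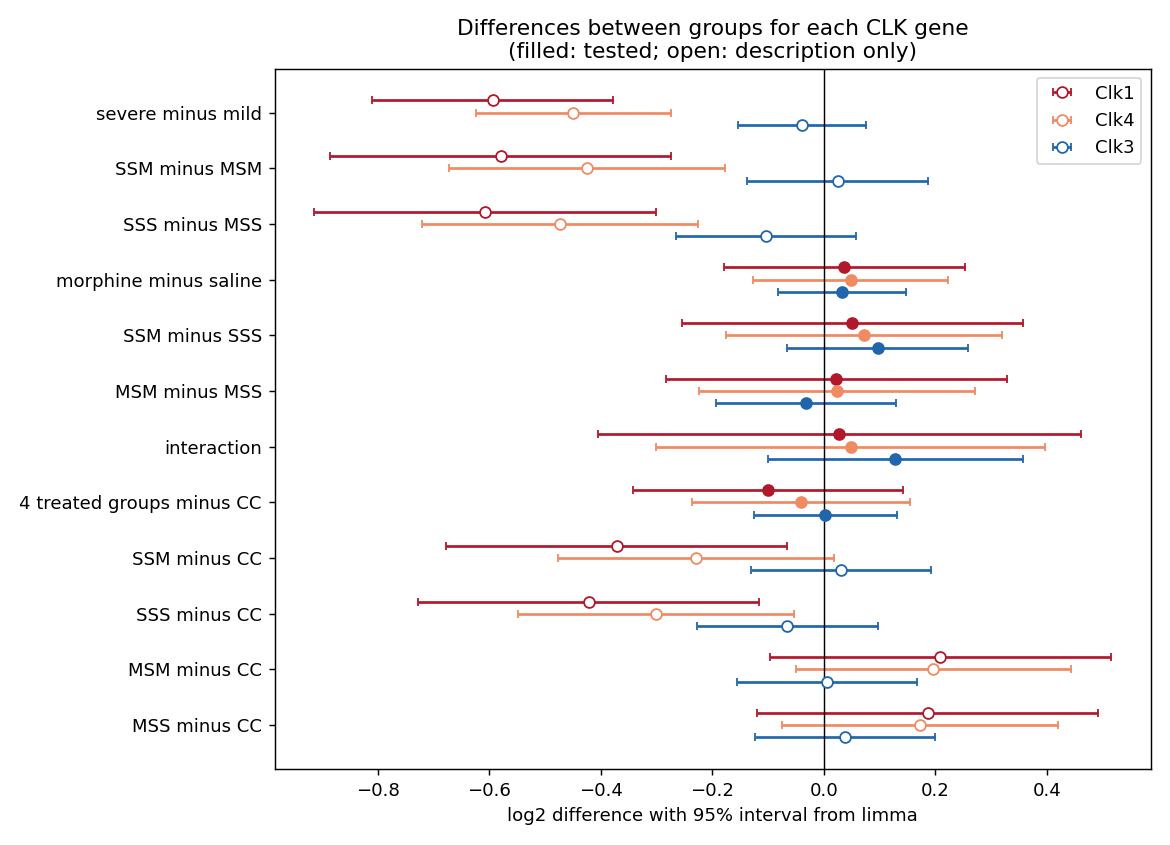
Points are log2 differences between groups from limma and bars their 95% intervals, for Clk1, Clk4 and Clk3; filled points were tested and open points are descriptions. Every morphine interval spans 0, whereas the severe-minus-mild points of Clk1 (-0.59) and Clk4 (-0.45) lie far to the left of Clk3 (-0.039).

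Clk1 and Clk4 varied together from array to array. Over the 15 arrays their Pearson correlation was 0.970, and 0.902 for the deviations from the group means, from which the group differences have been removed. SSS replicate 1 was 0.34 below its group mean in Clk1 and 0.26 below it in Clk4, while SSS replicate 3 was above by 0.36 and 0.26. Clk3 followed less closely, with correlations of 0.418 with Clk1 and 0.473 with Clk4, which were 0.718 and 0.750 without SSM replicate 1 and MSM replicate 3. Arrays share their normalization and their SS number, and these correlations are descriptions. Clk1 and Clk4 are close relatives, and whether their probes read each other's transcripts was not tested.

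**Figure D3:**
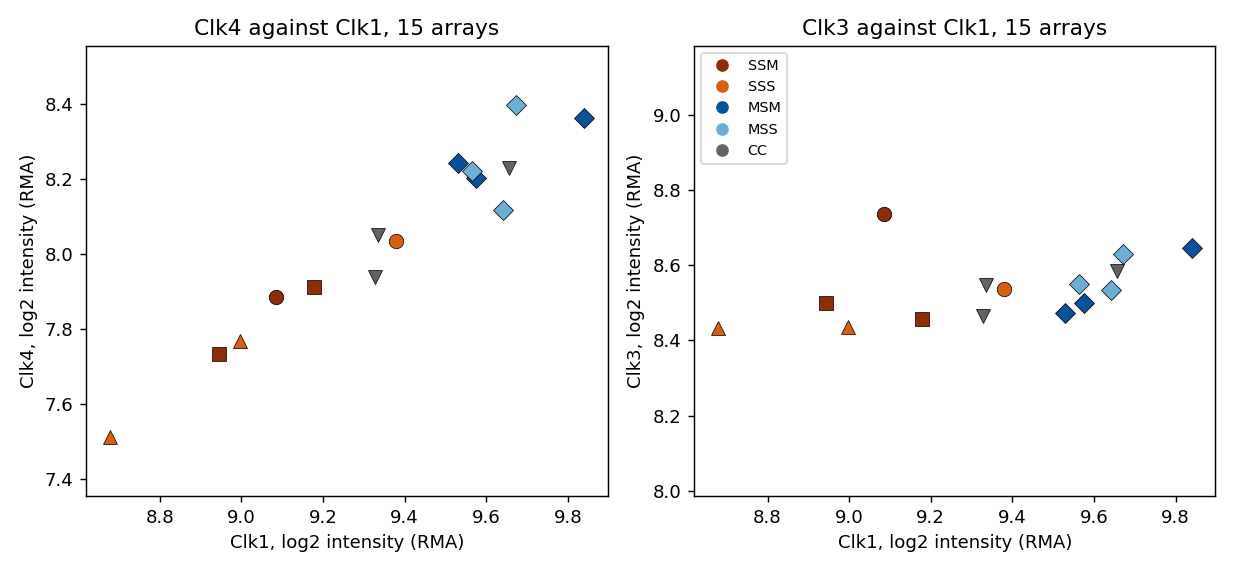
Clk4 (left) and Clk3 (right) are plotted against Clk1 in log2 intensity, with a point per array, coloured by group and shaped by SS number as in the plot of values by array. Clk4 follows Clk1 closely (r = 0.970), while Clk3 stays near 8.5 over the whole range of Clk1 (r = 0.418).

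The genes most like Clk1 and Clk4 were sought over the 15 arrays. By correlation among 12766 named genes with a mean of at least 5, the 5 nearest to Clk1 besides its family were Pnn (0.970), Srsf6 (0.958), Pnisr (0.954), Luc7l3 (0.945) and Paxbp1 (0.941). Pnn codes for pinin, a speckle protein, Pnisr for its SR-rich partner, Srsf6 for an SR protein and Luc7l3 for a protein linked to the U1 particle that reads the start of introns. The median correlation with Clk1 over all 12766 genes was -0.13, and 20 genes exceeded 0.9. For Clk4 the 5 nearest were Pnisr (0.956), Pnn (0.939), Luc7l3 (0.937), Fyco1 (0.928), an adaptor of vesicle transport, and Ints6l (0.925), and 17 genes exceeded 0.9.

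Some of this likeness held within groups. For deviations from the group means the 5 genes nearest to Clk1 were Prpf38b (0.940), a pre-mRNA processing gene, Pnn (0.936), Rbm39 (0.931), a splicing coactivator, Slf2 (0.925) and Srsf6 (0.904), and 5 of the 12766 genes exceeded 0.9. For Clk4 they were Cep95 (0.961), a centrosome gene, Pnisr (0.917), the transcription factor gene Ubp1 (0.912), Mettl17 (0.911) and Pcgf6 (0.896). Pnn was 9.21, 9.08 and 9.22 in SSM and 8.95, 9.23 and 9.35 in SSS. It was 9.42, 9.36 and 9.48 in MSM, 9.41, 9.42 and 9.40 in MSS, and 9.42, 9.30 and 9.33 in CC. Its severe-stress arrays lay below its mild-stress arrays in every case, by a mean of 0.24 (SE 0.059), and its lowest array was again SSS replicate 1. Pnisr averaged 8.71 ± 0.23 under severe and 9.25 ± 0.12 under mild stress (SD, n = 6 each), a difference of -0.55 (SE 0.10). Both genes were picked for their likeness to Clk1 and Clk4 over arrays that include this contrast, so these differences follow in part from the choice and are given without a test. Of the 14 genes named in these lists, 12 have a promoter in the RefSeq table, and 0 of those held the cyclic AMP response element seen in Clk4. Only 1.55% of all windows hold this motif, so nothing is read from that count.

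**Figure D4:**
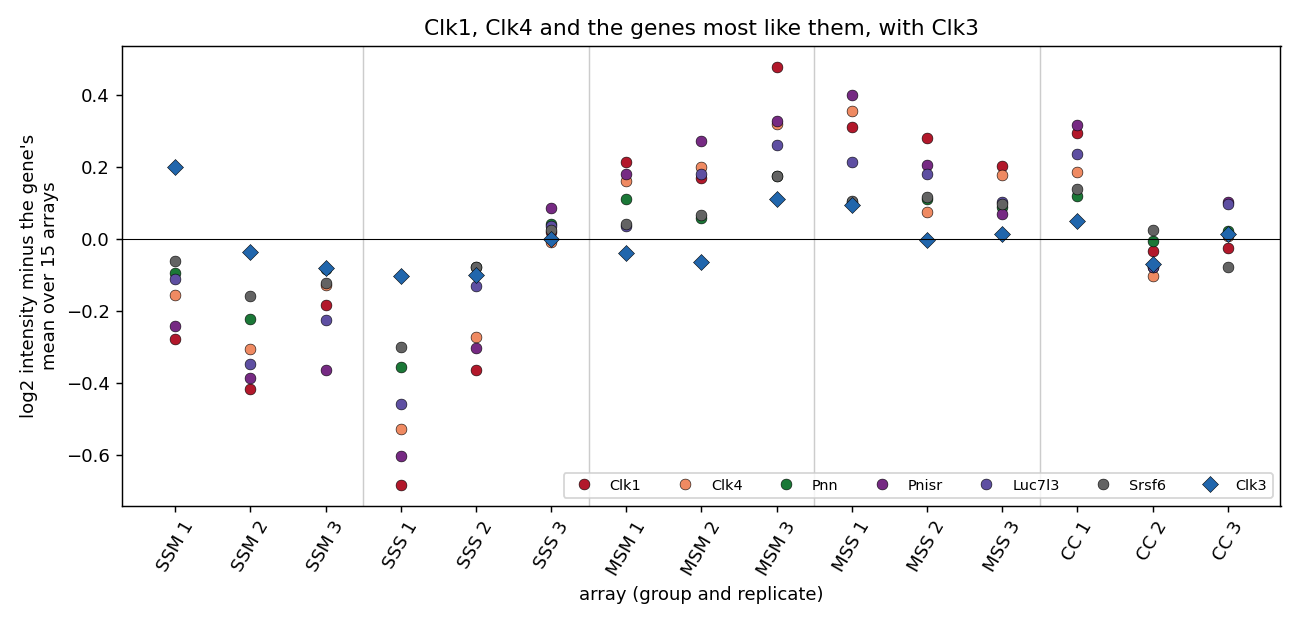
The vertical axis is each gene's log2 intensity minus its own mean over 15 arrays, and the horizontal axis the arrays by group and replicate; circles are Clk1, Clk4 and 4 of the genes most like them, diamonds are Clk3. The circles are lowest together in SSS replicate 1 and lie above 0 in all 6 mild-stress arrays, while Clk3 is highest in SSM replicate 1.

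Among the SR proteins, the targets of CLKs, a few genes had lower values under severe than under mild stress and most were level. Of 12 measured SR protein genes 0 passed over all genes in limma, where 2 of 19938 (0.01%) did, and 4 had an unadjusted p under 0.05 and a negative difference, against 2.8% of all genes. These 4 were Tra2a -0.56 (SE 0.10, adjusted p = 0.0832), Srsf5 -0.31 (SE 0.067, adjusted p = 0.107), Srsf6 -0.22 (SE 0.056, adjusted p = 0.147) and Srsf11 -0.15 (SE 0.059, adjusted p = 0.341). Tra2a averaged 7.99 ± 0.25 under severe stress, 8.56 ± 0.14 under mild stress and 8.42 in CC. The other 8 lay between -0.048 (Srsf1) and 0.034 (Srsf12), among them Tra2b at 0.019, the close relative of Tra2a. The list median was -0.012, beside 0.035 over all genes.

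Among the other kinases of SR proteins and the related DYRK and HIPK families, 0 of 13 passed in limma and the median was -0.010. With an unadjusted p under 0.05 were Prpf4b -0.18 (SE 0.051), a kinase that acts on the spliceosome, Dyrk1b -0.10 (SE 0.045) and Dyrk1a 0.094 (SE 0.038), against 12.1% of all genes in either direction. Of the 6 genes for subunits of phosphatases that reverse SR protein phosphorylation 0 passed. Under severe stress 1 was lower, against 29.7% of all genes, and the median was 0.061. Within each drug 2 were lower, against 26.4% of all genes in SSM minus MSM and 45.6% in SSS minus MSS. The nearest to the threshold were the catalytic subunit genes Ppp1ca 0.14 (SE 0.055) and Ppp2ca 0.082 (SE 0.033) (unadjusted p = 0.0237 and 0.0257 in limma).

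The 22 genes of nuclear speckles and SR-related coactivators were mostly lower under severe than under mild stress. Their median difference was -0.14 and 19 of the 22 were negative, against 29.7% of all genes. That share differed by drug. In SSS minus MSS 19 of the 22 were lower, against 45.6% of all genes. In SSM minus MSM 18 were lower, against 26.4%. In limma 0 passed, 14 had an unadjusted p under 0.05 and were lower (2.8% of all genes) and 1 was higher (9.28% of all genes). The nearest to the threshold were Arglu1 -0.35 (SE 0.061, adjusted p = 0.0630), a coactivator, Son -0.25 (SE 0.047, adjusted p = 0.0832), the scaffold of speckles, Rsrp1 -0.42 (SE 0.083, adjusted p = 0.0870) and Srrm2 -0.34 (SE 0.073, adjusted p = 0.104), another speckle scaffold. In 8 genes all severe-stress arrays lay below all mild-stress arrays, against 0.411% of all genes. One of these was Clasrp, named for its binding to Clk4, at -0.24 (SE 0.054, adjusted p = 0.112). Rnps1, a part of the exon junction complex, was the gene on the other side, at 0.13 (SE 0.037). Like the other gene lists, this list was written with earlier results of these data known, so the counts of all the lists are descriptions.

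The hnRNP and PTB proteins, many of which oppose SR proteins, had a median of 0.036, that of all genes being 0.035. Of the 15 measured, 0 passed in limma, and Hnrnpa2b1 alone had an unadjusted p under 0.05 (-0.14, SE 0.047). Heat shock genes also stayed close to the rest, with a median of 0.051 over 12 measured and 0 passing. Among them Dnajb1 was 0.15 (SE 0.051, unadjusted p = 0.0112). The cold-induced RNA-binding protein genes, set beside CLKs because CLK activity in mammals responds to body temperature, were Cirbp -0.18 (SE 0.064, adjusted p = 0.296) and Rbm3 -0.071 (SE 0.041, adjusted p = 0.509).

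Noncoding RNAs that are kept in the nucleus were also lower under severe stress. They are set beside Clk1 and Clk4 because part of those transcripts is kept there too, and a shared cause was not tested. The 4 measured were Malat1 -0.70 (SE 0.17, adjusted p = 0.132), Rian -0.68 (SE 0.14, adjusted p = 0.0983), Snhg11 -0.65 (SE 0.13, adjusted p = 0.0919) and Meg3 -0.60 (SE 0.13, adjusted p = 0.115). None passed over all genes in limma, and all 4 were lower with an unadjusted p under 0.05 (2.8% of all genes). Since the list was written with earlier results of these data known, this count is a description. Malat1 averaged 10.6 ± 0.48 under severe stress, 11.3 ± 0.094 under mild stress (SD, n = 6 each) and 11.3 in CC. The list median of -0.67 was -0.51 without SSS replicate 1, the array in which Clk1 and Clk4 were also lowest.

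The speckle list differed little with morphine. It had a median of -0.012 for morphine minus saline, and the SR proteins had a median of 0.0075. In the speckle list 0 of 22 genes had an unadjusted p under 0.05 in limma, against 7.64% of all genes. With so few genes this is near that share, and nothing is read from it. For all genes the median of morphine minus saline was 0.027.

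**Figure D5:**
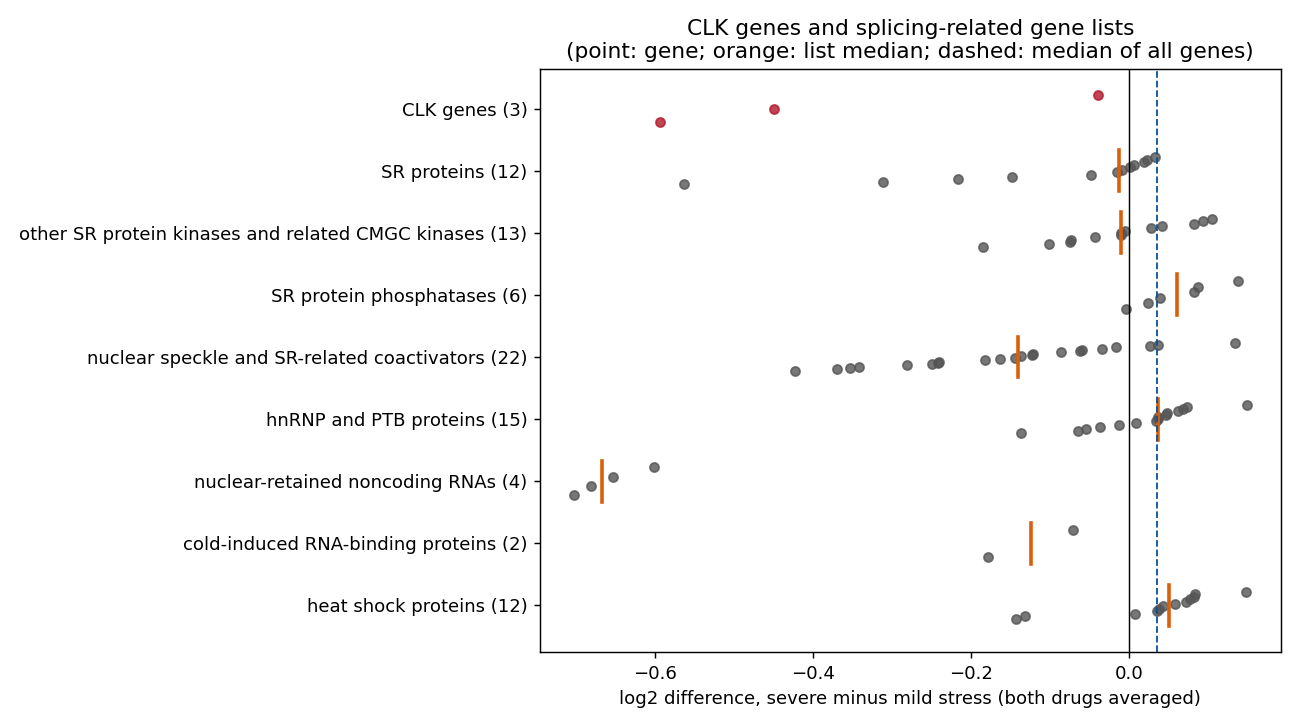
Each point is a gene, placed on the horizontal axis by its log2 difference of severe minus mild stress averaged over both drugs; orange bars are list medians and the dashed line is the median of all genes (0.035). Clk1, Clk4, Tra2a, most of the speckle list (median -0.14) and the nuclear-retained RNAs (median -0.67) lie to the left, while phosphatase, hnRNP and heat shock genes lie near the dashed line.

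Cell makeup differed between arrays, and in whole tissue fewer cells of a type and less RNA per cell cannot be told apart. Hippocampal neuron markers averaged 7.92 to 8.84 over the arrays, with the lowest value in MSM replicate 3. That array had the highest mean of the 8 thalamus markers (8.59, against 7.20 to 7.58 on the other 14), and SSM replicate 1 the highest of the 8 measured striatum markers (9.78, against 6.92 to 8.59). In the severe-against-mild contrast, where 29.7% of all genes were lower, 10 of 10 choroid plexus markers and 8 of 8 striatum markers were higher. There 7 of 8 thalamus and 7 of 8 myelin markers were lower, and 0 of all these markers passed in limma. Within one drug these directions did not all hold. In SSM minus MSM 8 of 10 choroid plexus markers were lower (median -0.097), against 26.4% of all genes. In SSS minus MSS 7 of 8 striatum markers were lower (median -0.064), against 45.6% of all genes. Mean choroid plexus levels ranged from 6.81 to 7.53 in SSM, 5.50 to 7.71 in SSS, 6.96 to 7.48 in MSM, 5.55 to 7.11 in MSS and 6.59 to 7.12 in CC. Mean myelin levels ranged from 6.78 to 8.37 in SSM, 6.65 to 6.79 in SSS, 7.01 to 8.14 in MSM, 6.56 to 7.35 in MSS and 6.52 to 7.49 in CC. Their part in the CLK values was not tested. Without SSM replicate 1 and MSM replicate 3 the severe-minus-mild difference was -0.55 for Clk1 (SE 0.11), -0.44 for Clk4 (SE 0.092) and -0.056 for Clk3 (SE 0.045).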

How the data were processed

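The authors deposited a table of log2 intensities with a column per array, made with RMA per the submitters' processing notes (no software or version stated). The table holds 35557 probe sets, of which 21789 carry 1 gene symbol and 1621 several. Keeping the brightest single-symbol probe set per gene gave 19938 genes, and dim genes were not filtered. Array medians lay between 5.41 and 5.60, pairwise correlations were 0.988 to 0.997, and precision is limited by how many arrays there are. The highest array median was that of SSM replicate 3, whose median over the 19938 genes was also the highest (6.39). The next highest median over genes was 6.27, in SSM replicate 1. The fit used limma 3.58.1 (R 4.3.3; a mean per group, 10 residual and 4.61 prior degrees of freedom), with two-sided tests, Benjamini-Hochberg adjustment over all genes and a threshold of 0.05; the fit was tested on simulated data. The members and lists were chosen with earlier results of these data known. Of the 8 pathway lists, 86 of 95 genes were measured. The rule named up to 4 genes per list by smallest p in severe minus mild stress, and the 5 genes most correlated with Clk1 and with Clk4, passing over predicted, RIKEN, olfactory, vomeronasal and small RNA genes; Clasrp, Rnps1, Srsf1, Srsf12 and Tra2b were added after their values were seen. Alternatives were quantile normalization, median centring, a dim-gene filter (mean of at least 5), the mean of a gene's probe sets, only the groups compared, the SS number as a block and arrays left out.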

Additional observations from a re-analysis of the deposited data

How the results depend on the processing

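The severe-minus-mild differences of Clk1 and Clk4 stayed below 0 in all 22 alternatives, from -0.68 to -0.51 and from -0.51 to -0.38. Several alternatives change only the SE and leave these differences as they were. The gap between the lowest mild-stress and the highest severe-stress array was 0.15 for Clk1 and 0.083 for Clk4. It was 0.18 and 0.13 after quantile normalization, and 0.080 and 0.026 after median centring. Leaving arrays out cannot narrow this gap, and the dim-gene filter and the mean of probe sets left it unchanged. The family was picked from this contrast, so these values are descriptions. Small differences in the tested comparisons changed sign, and the cause was not tested. Under quantile normalization this held for Clk3 morphine minus saline (-0.00207), Clk1 SSM minus SSS (-0.00108), the interaction of Clk1 (-0.011) and Clk4 (-0.00329) and Clk3 in the treated groups minus CC (-0.0086), and under median centring for the last (-0.010). Without both SSM replicate 1 and MSM replicate 3 it held for morphine minus saline of Clk1 (-0.015) and Clk3 (-0.038), MSM minus MSS of Clk1 (-0.073) and Clk4 (-0.022) and Clk3 in the treated groups minus CC (-0.033). With the SS number as a fixed block, added after seeing the data, it held for Clk1 and Clk4 in morphine minus saline (-0.14 and -0.063), SSM minus SSS (-0.30 and -0.15) and the interaction (-0.32 and -0.17). That fit called 61, 68 and 10 genes in these comparisons, but its severe-stress part rests on SS number 8 alone, with 1 pup per drug, of which SSM replicate 1 had the highest striatum markers. None of the 3 genes passed in any tested comparison under any alternative. Some small values given without a test changed sign too. Among them were Clk3 SSM minus MSM (-0.039), Clk3 SSM minus CC (-0.029) and the hnRNP list median (-0.014) under quantile normalization. Under median centring Clk3 MSM minus CC (-0.026) and the SR protein median (0.018) did so.

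With each array left out in turn, morphine minus saline ranged from -0.048 to 0.13 for Clk1, -0.011 to 0.059 for Clk3 and -0.017 to 0.11 for Clk4. MSM minus MSS ranged from -0.073 to 0.082 for Clk1, -0.086 to 0.0013 for Clk3 and -0.040 to 0.10 for Clk4, and SSM minus SSS from -0.12 to 0.23 for Clk1 and -0.058 to 0.20 for Clk4. The interaction ranged from -0.14 to 0.21 for Clk1 and -0.082 to 0.18 for Clk4, and the treated groups minus CC from -0.16 to 0.0087 for Clk1, -0.031 to 0.028 for Clk3 and -0.11 to 0.038 for Clk4. Genes called ranged from 1 to 17 in severe minus mild stress (17 without SSS replicate 3, 5 without SSM replicate 3), and from 0 to 1 in MSM minus MSS and in the treated groups minus CC.

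In severe minus mild stress 2 genes were called, against 14 after quantile normalization, 32 after median centring, 4 with the mean of probe sets, 1 with only the groups compared and 1 with the SS number as a random block. Of genes with an unadjusted p under 0.05, 76.8% were higher (1851, with 559 lower), against 92.5% after centring (4322, with 352 lower) and 56.1% without SSM replicate 3 (1194, with 933 lower). No paired analysis was possible because the replicate numbers are in accession order and pair no samples.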
